A study of Mus musculus with 10 samples.

Results

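The neuronal splicing and RNA-binding factors described here are 10 genes of 4 families, namely Rbfox1, Rbfox2, Rbfox3, Nova1, Nova2, Elavl2, Elavl3, Elavl4, Ptbp1 and Ptbp2. They were taken by gene symbol from raw RNA-seq counts of 50559 mouse genes, of which 47925 had at least 1 count in any library. All 10 symbols were found, and all 10 were among the 29952 genes that passed the filter on low counts.

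The study asked what kind of brain tumor arises when cerebellar granule cell precursors lose SMARCA4, a chromatin remodeling ATPase, and overexpress MYC, and its RNA-seq set holds 10 libraries in 3 groups. The 4 MYC/SMARCA4 tumors grew from precursors of tamoxifen-induced Math1-creERT2::Smarca4fl/fl pups that were transduced with lentiviral murine Myc and GFP and transplanted into cerebella of immunodeficient CD1nu/nu mice. The hosts were 112, 96, 89 and 79 days old for tumors 1 to 4. The 3 P7 cerebella were whole normal cerebella from mice 7 days old with the same Math1-creERT2::Smarca4fl/fl genotype and 0.4 mg tamoxifen at postnatal day 3, so that Smarca4 deletion in part of the granule lineage was shared by these controls. The 3 SHH MB libraries were medulloblastomas driven by Sonic hedgehog signaling in Math1-cre::Smofl/wt mice, labelled as 7 days old, which carried neither the Smarca4 allele nor the Myc vector. In the tumors, Cre was driven by Math1 in granule precursors, transplanted cells were not sorted for recombination or transduction, and the host kept all cells of its own adult cerebellum. Tissue age therefore differed between the tumors and both other groups and cannot be told apart from the group. Tissue was fixed in formalin and embedded in paraffin, and a library counts RNA of every cell type in the sampled area.

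RNA-binding proteins of these families decide which exons a neuron keeps and how long its messages last. PTBP1 is abundant in dividing precursors and represses neuronal exons. As neurons form, its loss lets the paralog PTBP2 appear, and later RBFOX, NOVA and neuronal ELAVL proteins shape the splicing of synaptic, channel and cytoskeletal transcripts. In the cerebellum, the RBFOX3 protein is better known as NeuN, a marker of postmitotic granule neurons. Counts per gene measure the amount of each transcript and hold no information on exon choice.

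The hinge between both PTB proteins is a short exon of Ptbp2 that PTBP1 causes to be skipped, which shifts the reading frame and sends the transcript to decay. It is shown because Ptbp1 and Ptbp2 levels are set side by side below, and it was read from the GRCm39 genome with the GENCODE vM39 annotation. Exon 10 of Ptbp2 lies on the minus strand at chr3:119518261-119518294 and is 34 bases long, so that its length is no multiple of a codon. The window chr3:119518211-119518394 holds 100 intron bases before it and 50 after it, and capitals mark the exon.
Ptbp2 exon 10: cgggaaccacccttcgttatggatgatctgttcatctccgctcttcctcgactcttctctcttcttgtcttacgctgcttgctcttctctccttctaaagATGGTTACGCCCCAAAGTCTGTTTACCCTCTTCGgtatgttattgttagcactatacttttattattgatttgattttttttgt
The intron before the exon is rich in the pyrimidines that PTB proteins bind. The gene-level counts used here do not separate transcripts with and without this exon.

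The promoters of Ptbp1 and Nova2 are shown because Nova2 was the member whose groups differed most clearly and Ptbp1 the only member whose RefSeq promoter window held the letters CACGTG, the core of the E-box that MYC family proteins bind. Each window runs from 250 bases before to 50 bases after the annotated start in GRCm38.p6. Ptbp1 is at chr10:79854182-79854481 and Nova2 at chr7:18925638-18925937, both on the plus strand.
Ptbp1 promoter: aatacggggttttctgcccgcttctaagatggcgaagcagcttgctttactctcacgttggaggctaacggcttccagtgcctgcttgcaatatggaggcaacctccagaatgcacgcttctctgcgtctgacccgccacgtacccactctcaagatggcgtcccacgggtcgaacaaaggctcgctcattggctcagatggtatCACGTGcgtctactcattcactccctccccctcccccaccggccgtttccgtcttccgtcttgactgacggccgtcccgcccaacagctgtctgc
Nova2 promoter: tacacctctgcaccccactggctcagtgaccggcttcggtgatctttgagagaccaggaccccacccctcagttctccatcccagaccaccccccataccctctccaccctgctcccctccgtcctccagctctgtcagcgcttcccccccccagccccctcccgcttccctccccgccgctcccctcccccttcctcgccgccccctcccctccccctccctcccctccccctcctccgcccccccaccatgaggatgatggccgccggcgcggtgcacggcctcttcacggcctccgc
Capitals mark the hexamer, which reads the same on both strands and starts 45 bases before the start site of Ptbp1. It occurred in 1 of the 18 windows of 9 members, and in 7.15% of all 32851 windows of this length. Rbfox2 had no window. A match is a description of the letters, and binding was not measured.

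The libraries held 5663491 to 9352109 counts, and 3 counts, taken as the detection floor, equalled 0.304 to 0.737 counts per 1000000 (CPM, scaled by edgeR's TMM library sizes). All 10 members lay far above this floor, with at least 147 counts in every library, so depth did not limit any of them. The TMM factors were 0.622, 0.807, 1.27 and 0.884 in tumors 1 to 4 and 1.01 to 1.19 in the 6 other libraries. A lower factor gives a higher CPM, so the place of a single tumor beside other libraries depends in part on this scaling. Myc ran from 150.8 to 1574 CPM in the tumors, against 12.9 to 14.2 in the P7 cerebella and 33.4 to 45.4 in SHH MB. Smarca4 was at 134.8 to 241.8 CPM in the tumors, 219.5 to 279.7 in the P7 cerebella and 486.5 to 584.8 in SHH MB, so the whole-gene count, which covers exons outside the deleted part, does not by itself check the deletion. The tumors differed far more among themselves than the other libraries did (chi-square per degree of freedom between pairs of 31.9 to 124, against 4.29 to 7.05 within the other groups). Tumor 1 stood apart. Its 8 proliferation genes (Mki67, Top2a and others) summed to 118 CPM, against 1649, 1868 and 1728 in tumors 2 to 4, and 8 markers of mature granule neurons summed to 5163 CPM, against 1877, 249 and 1067. Its 8 markers of Purkinje cells summed to 12885 CPM, against 3147, 401 and 2100.5. Tumor 3 was at the other end, with the lowest sum of each of these neuron lists among the tumors. Defining markers of the labelled cerebellar tissue were present in the P7 cerebella, with Atoh1 at 17.2 to 29.5 CPM, while Atoh1 was at 0.491 CPM in tumor 1, which is under the floor. Mitochondrial transcripts took 5.72% of counts in tumor 1, 2.09% to 2.56% in tumors 2 to 4 and 1.5% or less in the 6 other libraries, so that all 4 tumors were above every control, and the part of this in the results was not tested. Values without tumor 1 or tumor 3 are given where leaving it out changed a call or moved a fold change strongly. In bulk tissue, fewer cells of a type and less RNA per cell cannot be told apart.

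Differences were tested with edgeR's quasi-likelihood test in 1 fit over all 10 libraries, with Benjamini-Hochberg adjustment over 29952 genes, and a gene is said to have passed at an adjusted p of at most 0.05. Nova2 was the only member that passed, and it was lower in the tumors against both other groups. Against the P7 cerebella, 1 of 10 members passed, where 6.26% of all tested genes did (3.99% higher and 2.27% lower). Against SHH MB, again 1 of 10 passed, where 4.68% of all genes did (2.43% higher and 2.26% lower). Between SHH MB and the P7 cerebella none of the 10 passed, where 0.224% of all genes did, and 2 were at an unadjusted p under 0.05 (Elavl4 and Ptbp1). DESeq2 and limma passed 0 of the 10. Over all 29952 genes, 7561, 5938 and 2636 were at an unadjusted p under 0.05 in edgeR in the 3 comparisons. DESeq2 passed 14.8%, 12% and 2.55% of the genes it tested, and limma 5.46%, 3.9% and 0.264%. These shares also apply to the counts of listed genes given below. No member reached the thresholds of the study (absolute log2 fold change of at least 2.5 and adjusted p of at most 0.01), which 0.29%, 0.601% and 0.01% of genes reached in the 3 comparisons. The 4 tumors enter both of their comparisons, so the fold changes against each control group are given side by side.

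**Figure D1:**
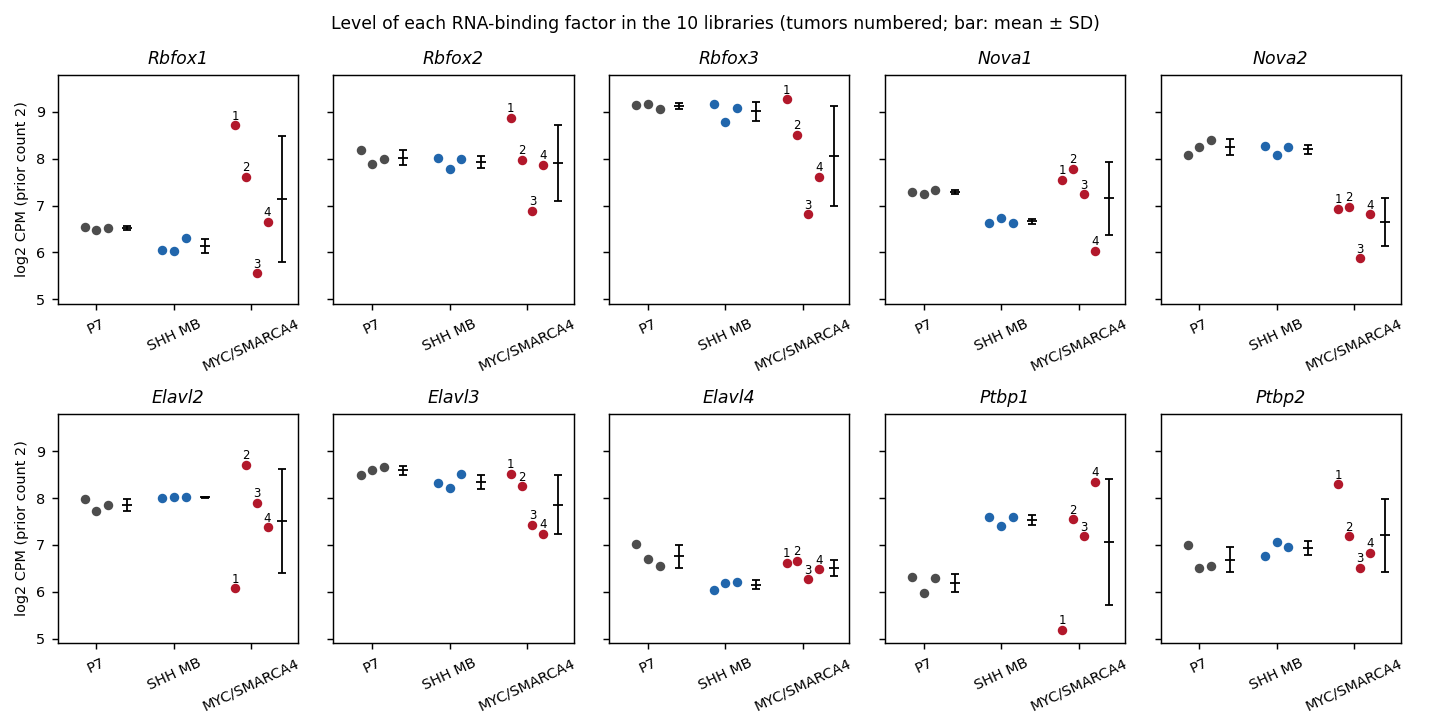
Level of each member in log2 CPM (y axis, prior count of 2) in the 3 P7 cerebella (grey), 3 SHH MB (blue) and 4 MYC/SMARCA4 tumors (red, numbered 1 to 4), with the mean and SD of each group as a black bar. The P7 cerebella and SHH MB sit close together within a group, the tumors scatter widely for most genes, and only Nova2 lies below both other groups in all 4 tumors.

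The Nova proteins bind clustered YCAY motifs and control exons of inhibitory synapse genes. Nova2 stood at 121.6, 125.6, 58.6 and 112.1 CPM in tumors 1 to 4. It was at 269.2, 306.5 and 340.2 CPM in the P7 cerebella and at 309.3, 271.1 and 302.8 CPM in SHH MB. All 4 tumors were below all 6 other libraries, and tumor 3 was the lowest. Of all tested genes, 10.7% lay lower in the tumors without overlap against the P7 cerebella and 8.3% against SHH MB. The log2 fold change was -1.55 ± 0.29 (SE) against the P7 cerebella, a level 2.92-fold lower (adjusted p = 0.0134, edgeR). Against SHH MB it was -1.49 ± 0.29, or 2.82-fold lower (adjusted p = 0.0142, edgeR). Between SHH MB and the P7 cerebella the log2 fold change of Nova2 was -0.052 ± 0.31.

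Nova2 was lower in the tumors whichever library was left out, with a log2 fold change of -1.73 without tumor 1 and -1.51 without tumor 3 against the P7 cerebella (edgeR adjusted p = 0.000989 and 0.00199). The call itself was lost against the P7 cerebella without P7 library 3 (adjusted p = 0.0535) and against SHH MB without any 1 of its 3 libraries (adjusted p = 0.0935, 0.0732 and 0.0997) or in a fit of only these groups (adjusted p = 0.0521). Some markers of other cell types were also lower in the tumors as a group. Of 8 immature neuron markers, 5 fell against both groups, among them the microtubule-binding protein Dcx (log2 fold change -4.15 and -3.98) and Nhlh1 against the P7 cerebella (-3.11). Their sum was 407 to 1257 CPM in the tumors, 2391 to 2648 in the P7 cerebella and 1609 to 1668 in SHH MB. Of 8 astrocyte and Bergmann glia markers, 4 fell against the P7 cerebella, led by Fabp7 (-4.14) and the water channel Aqp4 (-3.01). The log2 fold change was negative for 7 of the 8 and positive for 1. Their sum was 2396 to 2465 CPM in the P7 cerebella and 1940 to 2262 in SHH MB. In tumors 1 to 4 it was 400, 2435, 489 and 1865 CPM. Their part in the Nova2 result was not tested.

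Nova1, the paralog of Nova2, did not follow it. It stood at 187.9, 221.3, 150.9 and 65.3 CPM in the tumors, 157.2, 151.9 and 160.4 in the P7 cerebella and 98.6, 105.8 and 99.4 in SHH MB. Tumors overlapped both groups, with tumor 4 below every other library, while SHH MB lay below the P7 cerebella without overlap. Its log2 fold change was -0.0022 ± 0.34 against the P7 cerebella, where the sign turned under 9 of 19 alternative settings and library omissions. It was 0.63 ± 0.35 against SHH MB (edgeR adjusted p = 0.348), and -0.63 ± 0.37 for SHH MB against the P7 cerebella (adjusted p = 0.679). Per kilobase of exon, the ratio of Nova2 to Nova1 was 0.96, 0.85, 0.58 and 2.56 in tumors 1 to 4, 2.55 to 3.16 in the P7 cerebella and 3.82 to 4.67 in SHH MB. In tumors 1 to 3 Nova1 thus exceeded Nova2, in tumor 4 the ratio was within the range of the P7 cerebella, and the order was Nova2 over Nova1 in all 6 other libraries.

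**Figure D2:**
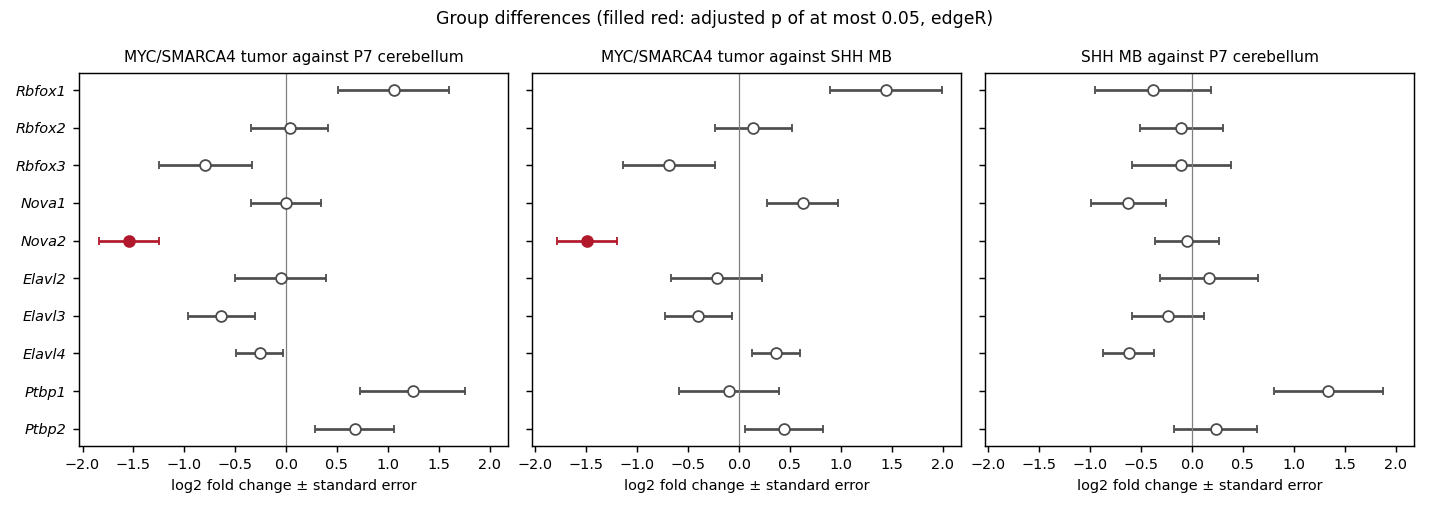
Log2 fold change of each member (x axis, with standard error from edgeR) in the 3 comparisons, with filled red points for an adjusted p of at most 0.05. Nova2 is the single filled point in both tumor comparisons, at -1.55 and -1.49, and no point is filled for SHH MB against the P7 cerebella.

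The RBFOX proteins bind UGCAUG and favor or repress exons by position. Rbfox3, the gene of NeuN, was at 615.9, 366.4, 112.6 and 196.7 CPM in the tumors. The paper found no NeuN protein signal when it stained the tumors. Counts from bulk tissue hold RNA of every cell type in the area, and which cells held this RNA was not tested. The P7 cerebella held 569.8, 574.7 and 531.9 CPM and SHH MB 578.4, 441.3 and 540.7. Tumors 2 to 4 were below all 6 other libraries, and tumor 1 was above them only after TMM scaling. As a share of all counts, tumor 1 was also below them, with 2507 of 6547245 counts, against 3776 of 7933586 in SHH MB library 2. Over all 4 tumors, the log2 fold change was -0.79 ± 0.46 against the P7 cerebella and -0.69 ± 0.46 against SHH MB (edgeR adjusted p = 0.284 and 0.437). Without tumor 1 it was -1.42 ± 0.34 and -1.34 ± 0.34 and passed both times (adjusted p = 0.0136 and 0.0251), in fits where 15.7% and 9.75% of all genes passed.

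Rbfox1, the family member of mature neurons and muscle, took the same order over the tumors from another starting level. It stood at 419.1, 196.0, 46.8 and 100.8 CPM in tumors 1 to 4, against 93.4, 88.8 and 92.1 CPM in the P7 cerebella and 66.0, 65.4 and 78.9 CPM in SHH MB. Tumors 1, 2 and 4 were above all other libraries and tumor 3 below all of them, and SHH MB lay below the P7 cerebella without overlap. As a share of all counts before TMM scaling, tumor 4 (833 of 9352109) was below P7 library 1 (922 of 8958307). In the fit, the log2 fold change was 1.06 ± 0.54 against the P7 cerebella and 1.44 ± 0.55 against SHH MB (edgeR adjusted p = 0.238 and 0.166). Without tumor 3 it was 1.16 and 1.57 and passed (adjusted p = 0.0293 and 0.0132), where 34.6% and 23.4% of all genes passed. Without tumor 1 it fell to 0.22 and 0.57 (adjusted p = 0.703 and 0.413).

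Rbfox2, which is expressed in many tissues, was at 469.5, 252.0, 118.5 and 234.6 CPM in the tumors. It was at 293.0, 238.2 and 253.9 CPM in the P7 cerebella and 257.5, 218.5 and 254.4 CPM in SHH MB. Tumor 1 was the highest and tumor 3 the lowest of all libraries, and the others overlapped. As a share of all counts before TMM scaling, tumor 1 (1911 of 6547245) was below P7 library 1 (2892 of 8958307). Fold changes on the log2 scale were 0.037 ± 0.38 and 0.14 ± 0.38 (edgeR adjusted p = 0.955 and 0.869), and without tumor 1 it was -0.48 and -0.40.

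Within a library, the 3 Rbfox genes stood in another balance in the tumors, and this ratio does not depend on library scaling. Per kilobase of exon, Rbfox1 was 1.00, 0.79, 0.61 and 0.75 times Rbfox3 in tumors 1 to 4, against 0.23 to 0.25 in the P7 cerebella and 0.17 to 0.22 in SHH MB. Rbfox2 was 1.28, 1.16, 1.77 and 2.01 times Rbfox3 in the tumors, 0.70 to 0.87 in the P7 cerebella and 0.75 to 0.83 in SHH MB. All 4 tumors were above all 6 other libraries in both ratios, tumors 1 and 3 included, although the levels of these genes in those tumors lay at opposite ends.

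**Figure D3:**
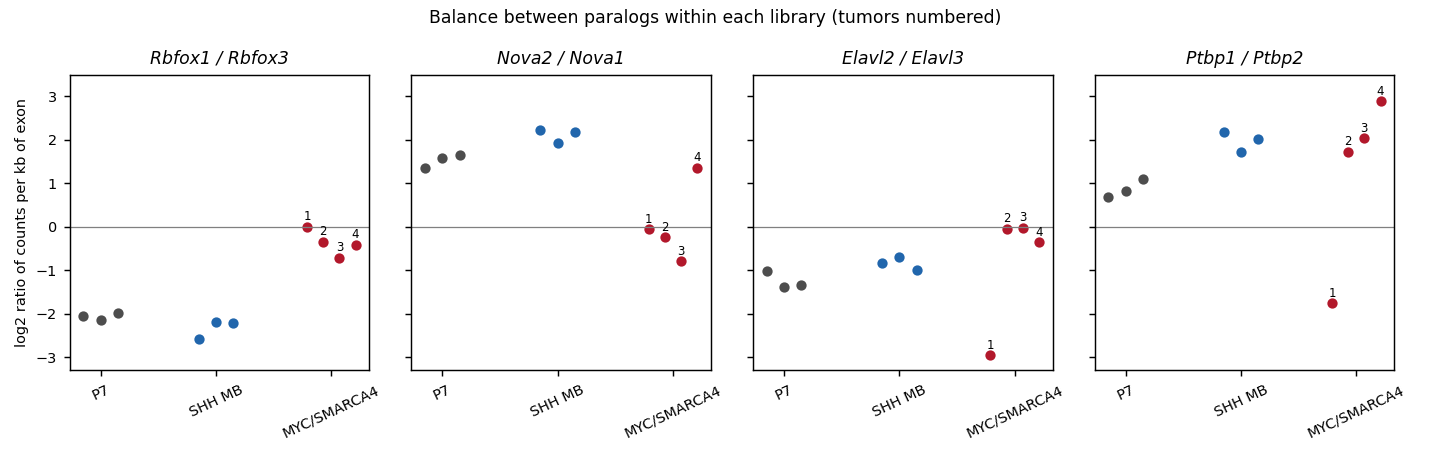
Log2 ratio of counts per kilobase of exon (y axis) between paralogs in each library of the P7 cerebella (grey), SHH MB (blue) and MYC/SMARCA4 tumors (red, numbered), with a line at equal levels. Rbfox1 to Rbfox3 separates all 4 tumors from the rest, Nova2 to Nova1 leaves tumor 4 within the range of the P7 cerebella, and tumor 1 lies below every other library in Elavl2 to Elavl3 and in Ptbp1 to Ptbp2.

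The neuronal ELAVL proteins, known as HuB, HuC and HuD, bind AU-rich and U-rich RNA and stabilize neuronal messages. Elavl3, which encodes HuC, was at 366.8, 305.2, 171.7 and 150.0 CPM in the tumors. The P7 cerebella held 360.1, 390.5 and 408.4 CPM and SHH MB 321.7, 295.5 and 364.9 CPM. Tumors 3 and 4 were below all other libraries, and tumors 1 and 2 overlapped them. As shares of all counts before TMM scaling, tumors 1 and 2 (1493 of 6547245 and 1710 of 6945005) were below SHH MB library 2 (2529 of 7933586). On the log2 scale, the fold change was -0.64 ± 0.33 against the P7 cerebella and -0.40 ± 0.33 against SHH MB (edgeR adjusted p = 0.241 and 0.543). Without tumor 1 it was -0.98 ± 0.27 against the P7 cerebella and passed (adjusted p = 0.0262), and against SHH MB it was -0.77 (adjusted p = 0.0979).

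Elavl2, which encodes HuB, was the family member with the widest range in the tumors. It was at 67.1, 419.6, 239.2 and 165.6 CPM in tumors 1 to 4, at 253.0, 210.6 and 230.2 CPM in the P7 cerebella and at 257.2, 260.1 and 260.8 CPM in SHH MB. Tumor 1 was the lowest and tumor 2 the highest of all 10 libraries, and SHH MB lay just above the P7 cerebella without overlap. Fold changes of Elavl2 were -0.053 ± 0.45 and -0.22 ± 0.45 on the log2 scale (edgeR adjusted p = 0.945 and 0.825). Elavl2 was 0.13 times Elavl3 per kilobase in tumor 1 and 0.97, 0.98 and 0.78 times in tumors 2 to 4, against 0.38 to 0.50 in the P7 cerebella and 0.51 to 0.62 in SHH MB.

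Elavl4, which encodes HuD, was the steadiest member in the tumors, at 98.0, 100.5, 76.9 and 89.2 CPM (SD of 0.17 on the log2 scale, n = 4, against 0.52 to 1.35 for the other 9 members). It was at 130.1, 104.3 and 92.8 CPM in the P7 cerebella and at 65.9, 72.7 and 74.1 CPM in SHH MB. SHH MB was below all other libraries. The tumors were above SHH MB without overlap, and 7.83% of all genes were. As a share of all counts before TMM scaling, tumor 1 (399 of 6547245) was below SHH MB library 1 (427 of 5930961). For Elavl4, the log2 fold change was 0.36 ± 0.23 (edgeR adjusted p = 0.426), and against the P7 cerebella it was -0.26 ± 0.23 (adjusted p = 0.475).

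Ptbp1, the repressor of neuronal exons, was at 36.1, 186.5, 145.2 and 324.6 CPM in tumors 1 to 4. The P7 cerebella held 79.4, 62.5 and 77.7 CPM and SHH MB 192.2, 170.4 and 193.5 CPM. Tumors 2 to 4 were above all P7 cerebella, tumor 1 was below all other libraries, and SHH MB was above the P7 cerebella without overlap. The log2 fold change was 1.24 ± 0.51 against the P7 cerebella (edgeR adjusted p = 0.156) and -0.097 ± 0.49 against SHH MB (adjusted p = 0.935). Without tumor 1, Ptbp1 was higher than in the P7 cerebella by 1.48 ± 0.27 on the log2 scale and passed (adjusted p = 0.00283), and the fold change against SHH MB was 0.11 (adjusted p = 0.854).

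For SHH MB against the P7 cerebella, the log2 fold change of Ptbp1 was 1.34 ± 0.54, or 2.53-fold higher, and missed the threshold in the fit that shares its spread with the tumors (edgeR adjusted p = 0.491). It passed without tumor 1 (1.37, adjusted p = 0.0148), where 4.05% of all genes passed, and in a fit of these 6 libraries alone (1.36, adjusted p = 2.4e-09), where 23.7% passed. In that fit of 6 libraries, Rbfox1 (-0.36), Nova1 (-0.61) and Elavl4 (-0.60) also passed and were lower in SHH MB (adjusted p = 0.0286, 0.000162 and 0.000758). Elavl2 and Ptbp1 were higher and Rbfox1, Nova1 and Elavl4 lower in SHH MB without overlap, 5 of 10 members, and 36.8% of all genes were without overlap in either direction. The annotated exons of Ptbp1 overlap those of Plppr3 on the other strand. Plppr3 was at 17.2 to 42.7 CPM in the tumors, 74.4 to 84.4 in the P7 cerebella and 56.4 to 69.9 in SHH MB, and because the strand setting of the counting is not given in the sources used here, reads of the overlap cannot be told apart. Exons of Rbfox2, Nova1 and Elavl4 also overlap a predicted gene each, which carries the same limit.

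Ptbp2, the neuronal PTB protein, was at 314.2, 144.9, 91.1 and 113.3 CPM in the tumors. It was at 127.7, 91.3 and 92.9 CPM in the P7 cerebella and 108.8, 133.6 and 123.9 CPM in SHH MB. Tumors 1 and 2 were above all other libraries, and tumors 3 and 4 overlapped or lay just under them. As a share of all counts before TMM scaling, tumor 2 (812 of 6945005) was below SHH MB library 2 (1143 of 7933586). Fold changes of Ptbp2 were 0.67 ± 0.39 and 0.44 ± 0.38 on the log2 scale (edgeR adjusted p = 0.284 and 0.566), and 0.067 and -0.19 without tumor 1. Per kilobase of exon, the ratio of Ptbp1 to Ptbp2 was 0.30 in tumor 1 and 3.31, 4.10 and 7.37 in tumors 2 to 4, against 1.60, 1.76 and 2.15 in the P7 cerebella and 4.55, 3.28 and 4.02 in SHH MB. By this measure, tumor 1 was the only library with less Ptbp1 than Ptbp2, and tumors 2 to 4 were above all P7 cerebella. In counts not divided by exon length, Ptbp1 was also below Ptbp2 in the P7 cerebella. These ratios were 0.62, 0.68 and 0.84, against 0.11 in tumor 1. Which of both genes was higher in the P7 cerebella thus rests on the exon lengths used.

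**Figure D4:**
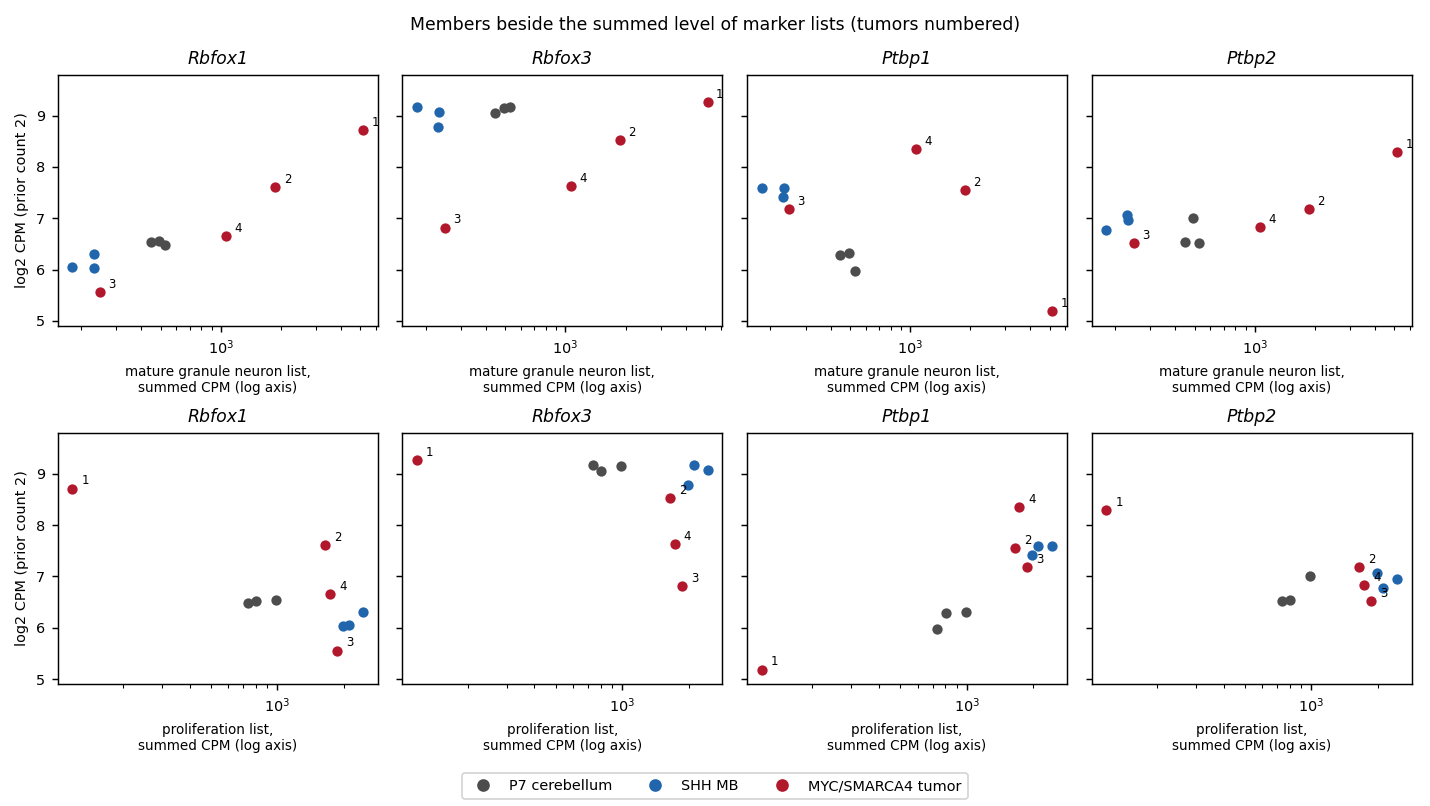
Level of Rbfox1, Rbfox3, Ptbp1 and Ptbp2 (y axis, log2 CPM) beside the summed CPM of 8 mature granule neuron markers (top, log axis) and of 8 proliferation genes (bottom, log axis) in the 10 libraries, with the tumors numbered. Among the tumors, Rbfox1, Rbfox3 and Ptbp2 take the order 1, 2, 4, 3 of the granule neuron sum. The TMM factors, from lowest to highest, and 5 other marker sums share this order. Tumor 1, with 118 CPM of proliferation genes, has the lowest Ptbp1.

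Across the tumors, Rbfox1, Rbfox2, Rbfox3 and Ptbp2 in TMM-scaled CPM were highest in tumor 1, then in tumors 2, 4 and 3. The marker sums of mature granule neurons, Purkinje cells, interneurons, myelin, immature neurons and endothelium all took this order, and Myc took its reverse (150.8, 364.6, 1007 and 1574 CPM in tumors 1, 2, 4 and 3). The TMM factors rose in the order 1, 2, 4, 3 as well, and the part of the scaling was not tested. As a share of all counts, Rbfox2 and Ptbp2 did not keep this order. Ptbp2 held 937 of 9352109 counts in tumor 4 and a higher share, 656 of 5663491, in tumor 3. Rbfox3 was lower in tumors 2 and 4 than in any P7 cerebellum. The mature granule neuron sum in these 2 tumors, 1877 and 1067 CPM, was above the 445 to 528 CPM of the P7 cerebella. Their immature neuron sum, 1002 and 487 CPM, was below the 2391 to 2648 CPM of the P7 cerebella. The defining markers Gabra6 and Cbln3 were at 15.4 to 384 and 42.5 to 1744 CPM in the tumors, against 9.62 to 18.1 and 29.9 to 35.5 CPM in the P7 cerebella, and both passed (log2 fold change 3.41 and 4.27). Proliferation genes summed to 736 to 989 CPM in the P7 cerebella and 1981 to 2445 CPM in SHH MB, and 0 of the 8 passed in edgeR, DESeq2 or limma in any comparison, with 1, 0 and 1 at an unadjusted p under 0.05. The part of these cells in the members' levels was not tested.

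Per kilobase of exon, Elavl3 was the highest of the 10 members in each group on average, at 36.0 CPM per kilobase in the tumors, 56.0 in the P7 cerebella and 47.5 in SHH MB. In the P7 cerebella it was followed by Rbfox3 (39.0), apart from it in all libraries, and Nova2 (36.4) overlapped both Rbfox3 and Rbfox2 (30.8). Elavl2 (23.7) and Elavl4 (19.6) overlapped each other and were apart from Rbfox2 above them. Ptbp1 (15.2) and Nova1 (12.5) were each apart from their neighbours, and Rbfox1 (9.38) and Ptbp2 (8.39) overlapped each other. In SHH MB, Ptbp1 (38.5) stood second, overlapping Rbfox3 (36.3) and Nova2 (35.1), and Rbfox1 (7.19) was last, overlapping Nova1 (8.10). In the tumors Nova2 was last at 12.4 CPM per kilobase, and every pair of neighbours in the order overlapped.

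Beyond the 10 members, 24 other regulators of splicing and RNA processing, some of neurons and some of many tissues, were counted, and 4 passed against the P7 cerebella (1 higher, 3 lower). Mbnl1, a muscleblind protein that drives mature splice forms, rose by a log2 fold change of 1.64 ± 0.26 (edgeR adjusted p = 0.00619), with 297, 334, 235 and 297 CPM in the tumors and 84.5 to 103 CPM in the P7 cerebella. Celf6 and Celf5, neural members of the CELF family, fell by 1.91 ± 0.36 and 1.43 ± 0.30 on the log2 scale (adjusted p = 0.0127 and 0.0198), and Khdrbs2, a STAR-family neuronal splicing factor, fell by 1.14 ± 0.29 (adjusted p = 0.0368). The list's median log2 fold change was -0.15, against -0.051 over all genes. Against SHH MB, Mbnl1 rose by 1.28 and Celf6 fell by 1.51 (adjusted p = 0.0152 and 0.0316) and the median was -0.17, against 0.0081 over all genes. Between SHH MB and the P7 cerebella none passed in edgeR, DESeq2 or limma, with 3 at an unadjusted p under 0.05 and a median of 0.036. The count of 4 of 24, where 6.26% of all genes passed, was 10 without tumor 1 and 9 without tumor 3, where 15.7% and 34.6% of all genes passed. It was 2 without P7 library 1 and 0 without P7 library 2 or 3, where 0.905%, 0.61% and 0.628% did.

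Of 20 general hnRNP, SR and spliceosome genes, all 20 had a positive log2 fold change against the P7 cerebella, with a median of 0.74. Hnrnpf, Srsf2 and Srsf1 passed, and they rose by 1.64, 1.26 and 1.22 (edgeR adjusted p = 0.0160, 0.0423 and 0.0320). By other measures more did, with 17 of 20 at an unadjusted p under 0.05 and 13 passing in DESeq2, against 3 in limma. Over all genes, 7561 of 29952 were at that unadjusted p, and 6.26% passed in edgeR, 14.8% in DESeq2 and 5.46% in limma. Hnrnpf was at 61.9, 113, 108 and 169 CPM in the tumors and at 31.7 to 42.8 CPM in the P7 cerebella. SHH MB also had positive values for all 20 against the P7 cerebella (median 0.63), of which 0 passed in edgeR, 12 were at an unadjusted p under 0.05, 3 passed in DESeq2 and 0 in limma. In that comparison 2636 of all 29952 genes were at that unadjusted p, and 2.55% passed in DESeq2. Against SHH MB the tumors had a median of 0.10, and 0 of the 20 were even at an unadjusted p under 0.05 or passed in DESeq2 or limma. The count of 3 was 14 without tumor 1 and 12 without tumor 3, where 15.7% and 34.6% of all genes passed, and 0 without any 1 of the P7 libraries, where 0.61% to 0.905% did.

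**Figure D5:**
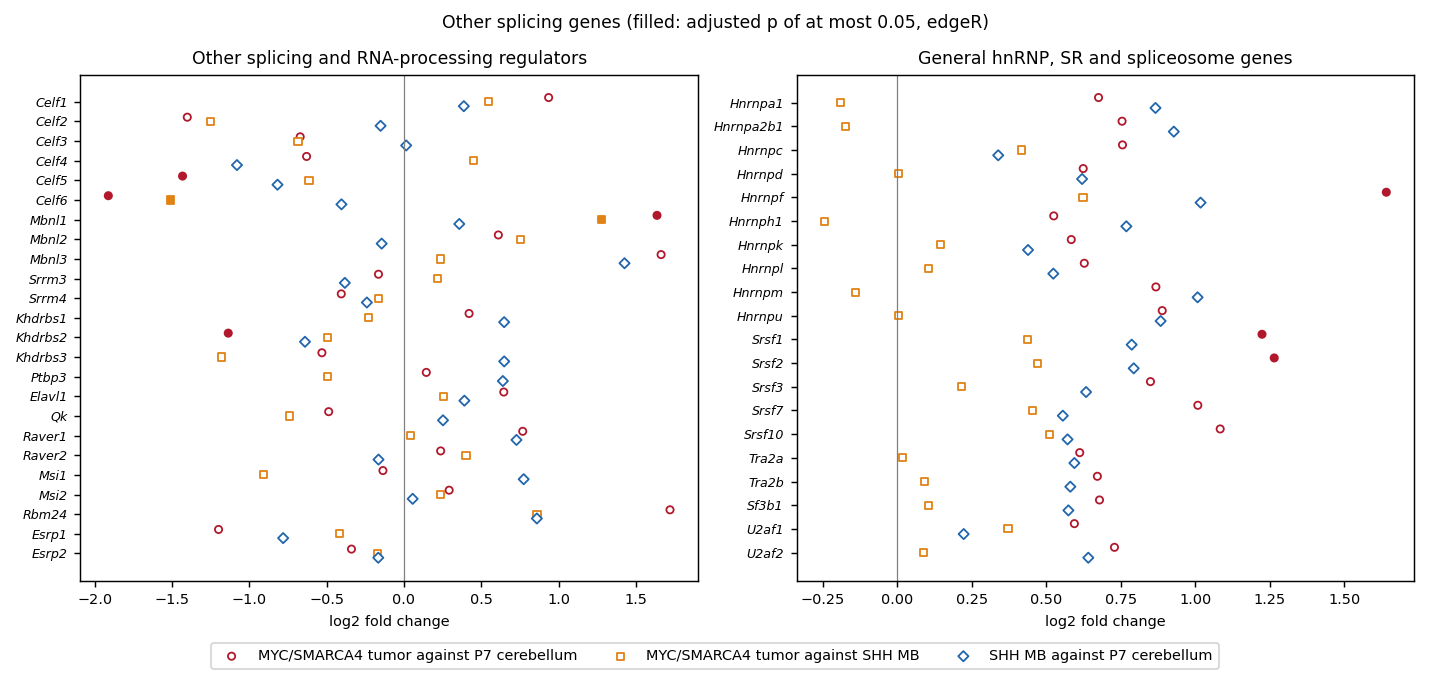
Log2 fold change (x axis) of 24 other splicing and RNA-processing regulators (left) and 20 general splicing genes (right) in the 3 comparisons, filled where the edgeR adjusted p was at most 0.05. On the left, Mbnl1 is filled on the positive side and Celf6 on the negative side in both tumor comparisons, and on the right all points of the tumors and of SHH MB against the P7 cerebella lie above 0.

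Transcripts known as splicing targets of these families were counted as whole genes. Pkm, whose exon choice PTB proteins control and which encodes pyruvate kinase, was the single one of 4 PTB targets to pass. It stood at 641, 504, 405 and 630 CPM in the tumors, 146 to 190 CPM in the P7 cerebella and 237 to 253 CPM in SHH MB, and rose by 1.67 ± 0.28 and 1.15 ± 0.28 (edgeR adjusted p = 0.00882 and 0.0349). The medians of the 4 were 0.18 and 0.81 in the tumor comparisons, and -0.23 for SHH MB against the P7 cerebella, where 0 passed in edgeR, DESeq2 or limma and 0 were at an unadjusted p under 0.05. Of 6 Nova targets, 2 fell against the P7 cerebella. Glra2, a glycine receptor subunit, was at 1.23, 1.07, 1.39 and 1.81 CPM in the tumors, 21.3 to 22.6 CPM in the P7 cerebella and 5.71 to 7.75 CPM in SHH MB. Its tumor values lay near the detection floor, which was 0.737, 0.535, 0.416 and 0.363 CPM in tumors 1 to 4. Glra2 fell by 3.96 against the P7 cerebella and 2.23 against SHH MB (edgeR adjusted p = 0.000138 and 0.00182). It was also lower in SHH MB than in the P7 cerebella (-1.73, edgeR adjusted p = 0.0402), where the log2 fold change of Nova2 was -0.052. A link between both genes was not tested. Kcnj6, a G protein-gated potassium channel, fell by 2.58 against the P7 cerebella (adjusted p = 0.0134), and the medians of the 6 were -0.045, 0.029 and -1.14 in the 3 comparisons.

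Of 4 Rbfox targets 0 passed against the P7 cerebella in edgeR or limma (median 1.30), with 2 at an unadjusted p under 0.05 and 2 passing in DESeq2, while Snap25 and Vamp1, which encode synaptic vesicle fusion proteins, rose by 3.71 and 3.26 against SHH MB (edgeR adjusted p = 0.0339 for each, with a list median of 2.73), although neither passed in limma. Snap25 was at 56.4 CPM in tumor 3 and between 459 and 2507 CPM in the others, with 72.4 to 80.0 CPM in SHH MB, so tumor 3 lay below SHH MB. Gap43, a growth cone protein whose message neuronal ELAVL proteins bind, had a log2 fold change of -1.48 against the P7 cerebella (adjusted p = 0.150). Of 6 genes of the REST and neuronal microRNA axis 0 passed in edgeR in any comparison, with 2, 1 and 2 at an unadjusted p under 0.05 in the 3 comparisons, 1, 0 and 0 passing in DESeq2 and 0 in limma. Rest, the repressor of neuronal genes, came nearest against the P7 cerebella, at 27.8, 70.5, 73.1 and 95.3 CPM in the tumors and 22.4 to 31.3 CPM in the P7 cerebella (log2 fold change 1.29, adjusted p = 0.0531).

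Markers of the remaining cell types that the tissue could hold were counted in the same way. Of 8 granule precursor markers, Mycn and Barhl1 fell against the P7 cerebella (log2 fold change -3.74 and -3.16) and against SHH MB (-5.01 and -4.78). The other 6 did not pass in edgeR. In each tumor comparison 6 of the 8 had a negative log2 fold change and 2 a positive one. Of 8 mature granule neuron markers, 4 rose against the P7 cerebella and 6 against SHH MB in edgeR (medians 2.39 and 3.48), and DESeq2 passed 6 and 7, limma 2 and 4. Of the 4, Gabra6 and Slc17a7 overlapped the P7 cerebella in range. Among 8 Purkinje cell markers 0 and 3 passed in edgeR, all higher (Ppp1r17 and Rgs8 by 5.02 and 4.07), and DESeq2 passed 3 and 4, limma 0 and 0. Among 8 interneuron and 8 myelin markers 0 passed against the P7 cerebella in edgeR or limma (1 of each list at an unadjusted p under 0.05, 0 and 1 passing in DESeq2), and Pvalb (4.77) and Mal (4.31) rose against SHH MB in edgeR, where 0 interneuron markers and 1 myelin marker passed in limma and the ranges of Pvalb overlapped. Of 8 choroid plexus markers, Ttr fell by 8.91 and 8.94, with at most 3.05 CPM in the tumors against 228 CPM or more elsewhere. The other 7 did not pass in edgeR. Against the P7 cerebella 2 of the 8 had a positive log2 fold change and 6 a negative one, and against SHH MB 1 and 7. DESeq2 passed 4 and 3 of them, limma 1 and 2. Of 8 endothelial markers 0 passed against the P7 cerebella in edgeR or limma. Against SHH MB only Kdr passed in edgeR and fell by 1.12, while 3 of the 8 had a positive log2 fold change and 5 a negative one. In each tumor comparison 4 of these 8 were at an unadjusted p under 0.05 and 3 passed in DESeq2. Of 8 microglia markers 0 passed in edgeR or limma, with 2 at an unadjusted p under 0.05 in each tumor comparison and 0 and 2 passing in DESeq2. Their part in the members' levels was not tested.

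The genes most like a member over the 10 libraries were searched among all 29952 tested genes by Pearson correlation of log2 CPM, as a description over libraries that share depth, group and cell makeup. Rbfox3 was most like Ap3b2 (0.989), an adaptor subunit of synaptic vesicles, then Nedd4l and Tmem178b (0.978 each). Nova2 was most like Aldh1l1 (0.986), a marker of astrocytes that fell against both groups, then Sdc3 and Mgat5b (0.984 each). Elavl3 was most like Gm5124 (0.976), Podxl2 (0.972) and Zic1 (0.967), a transcription factor of granule cells. Ptbp1 was most like Zc3hav1l (0.988), Pold3 (0.986), a DNA polymerase subunit, and Acvr2b (0.983). Ptbp2 was most like Gm36375 (0.984), Wdr20 (0.978) and Sfmbt1 (0.975).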

How the data were processed

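Total RNA-seq was made from formalin-fixed tissue of 10 mouse libraries after ribosomal depletion. Per the labels and the submitters' processing notes, the authors checked reads with FastQC 0.73, trimmed them with Trimmomatic 0.38.1, aligned them to GRCm39 with STAR 2.7.8a, counted them per gene with featureCounts 2.0.1, and deposited these raw counts and a table of log2-scale variance-stabilized values from DESeq2 (Galaxy 2.11.40.7). The counting's strand setting is not given in the sources used here. Labels gave the groups, and replicates carry no note of independent origin beyond separate samples, so p-values measure the spread between these samples. Raw counts were filtered (filterByExpr), scaled by TMM and fitted in 1 edgeR 4.0.16 quasi-likelihood model in R 4.3.3, with means per group and Benjamini-Hochberg adjustment. Levels are CPM or log2 CPM (prior count 2), and counts per kilobase use the union of GENCODE vM39 exons. Alternatives used DESeq2 1.42.0, limma 3.58.1 on the deposited log2 values, other scalings, filters and designs, and omission of each library. On simulated counts with log2 changes of 4 in 200 genes, 82.5% were recovered for the tumors against the P7 cerebella. The largest log2 fold change of a member was -1.55 (Nova2 against the P7 cerebella). Recovery of changes as small as those of the members was not simulated. Named genes were the 10 members, the 2 that rose and the 2 that fell most among the genes of each list that passed, the first 2 markers of each cell type, and for 5 members the 3 most correlated genes. Members and lists were chosen with earlier results of these data known. The 18 lists held 154 genes, all tested. Promoter sequences are from RefSeq. The result for 1 listed gene is not reported here.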

Additional observations from a re-analysis of the deposited data

Results flagged for a closer look

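Dixon's test for 1 sample far from the rest was applied to 16 values in the 4 MYC/SMARCA4 tumors (the levels of the 10 members and 6 ratios between paralogs), and 2 were past its critical value of 0.829, where chance alone gives about 1 in 20 groups. The level of Nova2 was 5.88 log2 CPM in tumor 3, against 6.93, 6.98 and 6.81 in tumors 1, 2 and 4, which gave a gap of 0.851 of the whole range. This gap rests on TMM scaling. As a share of all counts, Nova2 was nearly the same in tumor 1 (495 of 6547245) and tumor 3 (422 of 5663491). The log2 ratio of Elavl2 to Elavl3 per kilobase was -2.95 in tumor 1, against -0.04, -0.02 and -0.36 in tumors 2 to 4, which gave 0.886.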

How the results depend on the processing

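Over 19 alternatives per comparison, Nova2 was lower in the tumors each time, with log2 fold changes of -1.85 to -1.48 against the P7 cerebella (17 passing, adjusted p up to 0.0701) and -1.72 to -1.44 against SHH MB (14 passing, adjusted p up to 0.0997). The number of members that passed against the P7 cerebella was 2 with at least 10 counts in every library (Nova2 and Elavl3), where 11.8% of all genes passed. It was 0 at an adjusted p of at most 0.01, and 0 to 4 when 1 library was left out. The 4 came without tumor 1, where 15.7% of all genes passed. Against SHH MB it was 0 in a fit of only the groups compared, where 1.48% of all genes passed, and 0 at an adjusted p of at most 0.01. With 1 library left out it was 0 to 2, and the 2 came without tumor 1 or tumor 3, where 9.75% and 23.4% passed. For SHH MB against the P7 cerebella it was 4 in a fit of only the groups compared, where 23.7% passed. With 1 library left out it was 0 to 1, and the 1 came without tumor 1, where 4.05% passed. Replicate numbers did not mark pairs (correlations of same-numbered libraries from -0.27 to 0.16), and with the replicate number as a block 0 members passed in each tumor comparison and 0 between SHH MB and the P7 cerebella.

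Small fold changes turned sign. Against the P7 cerebella, Nova1 was 0.029 with RLE scaling, 0.039 without a filter, 0.060 in DESeq2, 0.24 with the replicate block and 0.0068 with library sizes without mitochondrial genes. Rbfox2 was -0.29 with at least 10 counts in every library, -0.071 in limma, -0.13 with only the groups compared and -0.032 with the replicate block, and Elavl2 was 0.0094 in DESeq2. Against SHH MB, Rbfox2 was -0.11 with at least 10 counts in every library. With 1 library left out, the values against the P7 cerebella ran from -0.48 to 0.082 for Rbfox2, -0.21 to 0.18 for Nova1 and -0.55 to 0.16 for Elavl2. Against SHH MB they ran from -0.40 to 0.20 for Rbfox2, -0.57 to 0.11 for Ptbp1 and -0.19 to 0.51 for Ptbp2. For SHH MB against the P7 cerebella they ran from -0.15 to 0.041 for Nova2 and -0.15 to 0.012 for Rbfox3. The causes were not tested. Over all genes, the number that passed against the P7 cerebella was 1874, but 4485 in DESeq2, 371 with the block, 229 with only the groups compared and 195 to 9932 with 1 library left out. Against SHH MB it was 1403, but 3062 in DESeq2, 631 with the block, 388 with only the groups compared and 311 to 6729 with 1 library left out. For SHH MB against the P7 cerebella it was 67, but 465 in DESeq2, 143 with at least 10 counts, 19 with the block, 6883 with only the groups compared and 0 to 1210 with 1 library left out. Depth limited no member.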
